A study of Mus musculus with 4 samples.

Results

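The genes described here are the HIF subunits and oxygen-sensing regulators *Hif1a*, *Epas1*, *Hif3a*, *Arnt*, *Arnt2*, *Vhl*, *Egln2* and *Hif1an*. They were chosen by symbol for their place in the hypoxia-inducible factor (HIF) pathway, and all 8 were found among the 24347 gene rows of each sample. RNA-seq had been done on day 3 embryoid bodies (EBs), cell aggregates formed by differentiating mouse embryonic stem cells (mESCs), with 2 WT samples and 2 samples whose *Gm11549* promoter had been deleted (promoter KO). *Gm11549* encodes the micropeptide NEMEP, and the study asked what its loss does to mesendoderm differentiation. Both genotypes were mESCs of the 129/Ola strain, grown in medium with 15% serum. The study's methods list E14Tg2a.IV and CCE among the lines kept and do not say which was sequenced. EBs formed on plates without gelatin after LIF was withdrawn, and no further treatment was given. The deletion was made with Cas9 and a pair of guide RNAs followed by single-cell sorting, so a promoter KO line is a clone, and the labels do not say from which clone or clones the 2 samples came. The study describes its samples as biologically independent, while the labels give only a number, so the p-values measure the spread between these samples.

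HIF is a pair of proteins, an alpha subunit that is destroyed when oxygen is plentiful and a beta subunit that is always present. Prolyl hydroxylases of the EGLN family mark the alpha subunit with the help of oxygen, the VHL ubiquitin ligase then sends it for degradation, and the asparaginyl hydroxylase encoded by *Hif1an* blocks its contact with coactivators. This control acts on the protein, which RNA-seq does not measure. The question put to the values was whether the transcripts of these genes differed between genotypes in a way that could bear on lower expression of HIF target genes in promoter KO EBs.

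*Gm11549* itself had 0.750 and 0.522 FPKM in WT and was listed at 0 and at 0.0659 FPKM in promoter KO. It was thus lower in both promoter KO samples, where its promoter is deleted, but no sample reached the 1 FPKM needed in at least 2 samples for a test. FPKM counts fragments relative to transcript length and library size, so levels of different genes can be set side by side. The deposited values carry no counts. The depth was estimated from the most common low value, scaled by transcript length and assumed to be 1 fragment. It came to 24600000 and 21800000 fragments in WT and 21500000 and 20100000 in promoter KO. Spearman's coefficient over the tested genes was 0.988 within each genotype and lay between 0.950 and 0.980 across genotypes.

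The labels call all samples mesendoderm derived from ES cells. Of 8 mesendoderm markers, all 8 were measured above the filter, and their summed level was 777 and 1002 FPKM in WT against 148 and 314 FPKM in promoter KO, with *T* the most abundant except in promoter KO replicate 1, where *Eomes* was. Each promoter KO sample was lower than each WT sample for all 8 markers, and 5 passed the test, a count that was 0 without WT replicate 2, without promoter KO replicate 1 or with no filter on low values. *Mixl1*, a homeobox gene of the primitive streak, had 63.0 and 76.3 FPKM in WT against 5.56 and 15.9 in promoter KO. No defining marker was at 0 in any sample, but *Mesp1* was at 0.759 FPKM in promoter KO replicate 1, and levels above 0 do not settle what share of the cells fit the label. *Pou5f1*, a pluripotency gene, had 1499 and 1188 FPKM in WT against 1522 and 1545 in promoter KO, and none of 9 pluripotency markers passed limma's test, where 4 had an unadjusted p under 0.05 (1 lower and 3 higher). Without promoter KO replicate 2, 2 of them were called higher. Of 6 neuroectoderm markers, *Nes* was lower in both promoter KO samples than in both WT samples and the other 5 were higher, though 4 of those 5 stayed under 1 FPKM and only *Nes* and *Sox3* were tested. *Sox3*, the most abundant, was called higher (adjusted p = 0.0493), a call lost in 14 of 16 alternatives. *Nes* had 21.6 and 24.5 FPKM in WT against 6.94 and 14.7 in promoter KO (log2 fold change −1.10, adjusted p = 0.0831), and was called lower without promoter KO replicate 2. In bulk samples, fewer cells of a type and less RNA per cell cannot be told apart.

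Of the 8 members, 1 was higher in promoter KO at an adjusted p under 0.05 by limma, *Epas1*, and 0 were lower. Among all 11941 tested genes, 427 were called in either direction (3.58%), of which 226 were lower (1.89%) and 201 higher (1.68%). At an unadjusted p under 0.05, 1 member was lower and 1 higher, against 15.6% and 15% of all tested genes. For 3 members each promoter KO sample was under each WT sample and for 4 above, against 32.4% and 32.9% of all tested genes, so the members' separations were near the background. All 8 members were tested, but *Epas1* reached the filter only through the promoter KO samples, so its difference is in part what let it be tested. The median log2 fold change was 0.01 over the members and 0.004 over all tested genes.

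**Figure D1:**
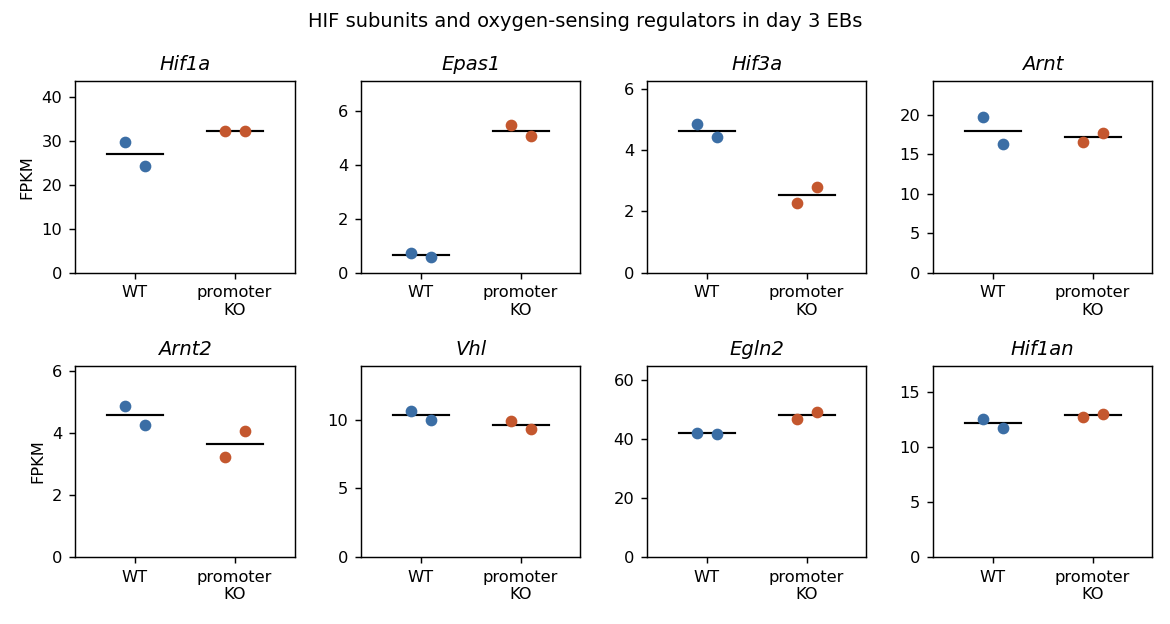
FPKM of each of the 8 members in each sample of WT (blue) and promoter KO (orange) day 3 EBs, with a line at the mean of the 2 samples and each axis starting at 0. The groups stand far apart for *Epas1* and apart for *Hif3a*, and lie close together or overlap for the other 6 genes.

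*Hif1a* encodes the HIF alpha subunit found in most cell types and lies at chr12:73901375-73947530 (GRCm38, GENCODE M21, forward strand). It had 29.8 and 24.5 FPKM in WT against 32.4 and 32.5 in promoter KO. Promoter KO lay above WT in all samples, and the WT samples differed more from each other than the higher of them did from promoter KO. The log2 fold change of FPKM + 1, promoter KO over WT, was 0.25 (SE 0.118, 95% confidence interval −0.03 to 0.54, adjusted p = 0.204). The estimate was 0.39 without WT replicate 1 and 0.12 without WT replicate 2, and the interval over all samples reached down to 0.976-fold. *Hif1a* shares exon sequence with an annotated antisense gene and with a second gene on its own strand, and neither has a row of its own in the data.

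*Epas1* encodes HIF2A, an alpha subunit with a narrower pattern of expression that is best known from endothelium, and lies at chr17:86753700-86833410 (forward strand). It had 0.746 and 0.569 FPKM in WT against 5.47 and 5.06 in promoter KO. Both WT samples were under 1 FPKM and both promoter KO samples were above 5 FPKM, with no overlap. *Epas1* thus reached the filter only through promoter KO, and its difference is in part what let it be tested. At the estimated depths these levels correspond to about 97.5 and 65.9 fragments in WT and 626 and 541 in promoter KO, so the WT values rest on the fewest fragments. The mean rose from 0.657 ± 0.125 to 5.27 ± 0.293 FPKM (SD, n = 2), a ratio of 8.01. On the scale of log2(FPKM + 1), which understates changes of low genes, the difference was 1.92 (SE 0.150, 95% confidence interval 1.55 to 2.29, adjusted p = 0.0208). The adjusted p was 0.105 without WT replicate 2 and 0.0951 without promoter KO replicate 1 when the same genes were tested, and 0.133 with no filter on low values.

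*Hif3a* encodes another alpha subunit, some forms of which limit the activity of the other alpha subunits, and lies at chr7:17031507-17062427 (reverse strand). It had 4.85 and 4.42 FPKM in WT against 2.27 and 2.78 in promoter KO. Both promoter KO samples were lower than both WT samples, and the gap between the groups was larger than the gap within either. The log2 fold change was −0.68 (SE 0.151, 95% confidence interval −1.05 to −0.31), and its adjusted p of 0.0613 missed the threshold. *Hif3a* was the member that was lower at an unadjusted p under 0.05.

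The composition of the alpha subunit transcripts differed between genotypes. *Hif1a* supplied 84.2% and 83.1% of the summed alpha FPKM in WT and 80.7% and 80.5% in promoter KO. It was by far the most abundant alpha subunit in every sample. *Epas1* supplied 2.11% and 1.93% in WT against 13.6% and 12.6% in promoter KO, and *Hif3a* 13.7% and 15.0% against 5.67% and 6.91%. The order of the lesser subunits was therefore the opposite in the genotypes, with *Hif3a* above *Epas1* in both WT samples and *Epas1* above *Hif3a* in both promoter KO samples. *Hif1a* had 40.0 and 43.0 times the FPKM of *Epas1* in WT and 5.91 and 6.42 times in promoter KO. The sum of the 3 alpha subunits was 35.4 and 29.5 FPKM in WT against 40.1 and 40.3 in promoter KO, higher in both promoter KO samples. For such a sum the smallest two-sided p of an exact permutation test is 0.333 in this design, so none was run.

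**Figure D2:**
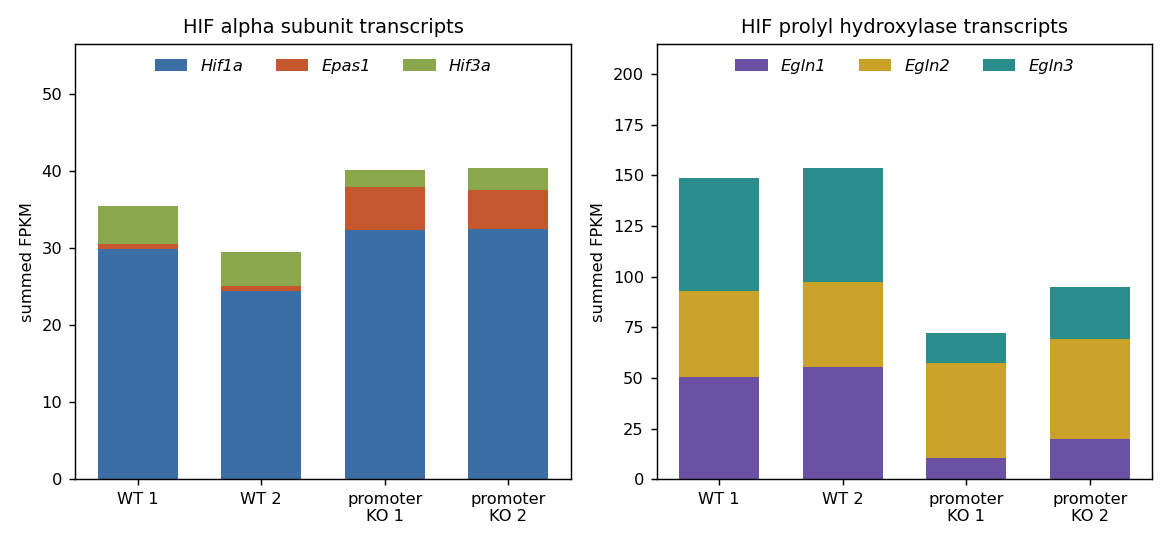
Summed FPKM of the HIF alpha subunits (left) and of the HIF prolyl hydroxylases (right) in each sample, with each gene's part stacked in its own color and the axis starting at 0. The alpha sum is 29.5 to 35.4 in WT and 40.1 to 40.3 in promoter KO, while the hydroxylase sum is 149 to 153 in WT and 72.4 to 95.1 in promoter KO.

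Markers of extraembryonic endoderm, an early lineage that lines the yolk sac, were also higher in promoter KO. Of 12 listed, 11 were tested, of which limma called 8 higher and 0 lower (0 also at an unadjusted p under 0.05). Of these 8, *Sox7* and *Cubn* passed the filter only through promoter KO, so their difference is in part what let them be tested. The number called higher was 0 without WT replicate 2, without promoter KO replicate 1 or with no filter on low values. Their summed level was 74.1 and 99.0 FPKM in WT against 212 and 271 in promoter KO. *Sparc*, a matrix protein gene also made by other cells, was the most abundant. *Amn*, which encodes an endocytic receptor subunit of visceral endoderm, had 2.33 and 1.14 FPKM in WT against 14.4 and 15.1 in promoter KO. *Gata4*, a transcription factor of this lineage, overlapped between genotypes, with 5.02 and 19.4 FPKM in WT against 9.68 and 13.8 in promoter KO. None of the 12 was listed at 0 in any sample, and the part of these cells in the *Epas1* result was not tested.

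Markers of endothelium and blood, where *Epas1* is well known, were mixed. Of 8 listed, 4 were tested, 1 was lower (*Etv2*) and 0 were higher by limma, with 2 lower and 2 higher (*Pecam1* and *Tek*) at an unadjusted p under 0.05. *Kdr*, 1 of the lower genes, passed the filter only through WT and *Tek* only through promoter KO. *Etv2* was not called without WT replicate 2, without promoter KO replicate 1 or with no filter on low values. The summed level was 27.4 and 46.3 FPKM in WT against 17.1 and 12.2 in promoter KO, and *Etv2* was the most abundant. *Kdr*, a VEGF receptor gene, had 1.67 and 11.3 FPKM in WT against 0.364 and 0.289 in promoter KO. The embryonic globin gene *Hbb-bh1* was listed at 0 in 3 samples and at 0.119 FPKM in WT replicate 2, and the endothelial cadherin gene *Cdh5* was not tested, with 0.148 and 0.346 FPKM in WT against 0.531 and 0.546 in promoter KO.

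**Figure D3:**
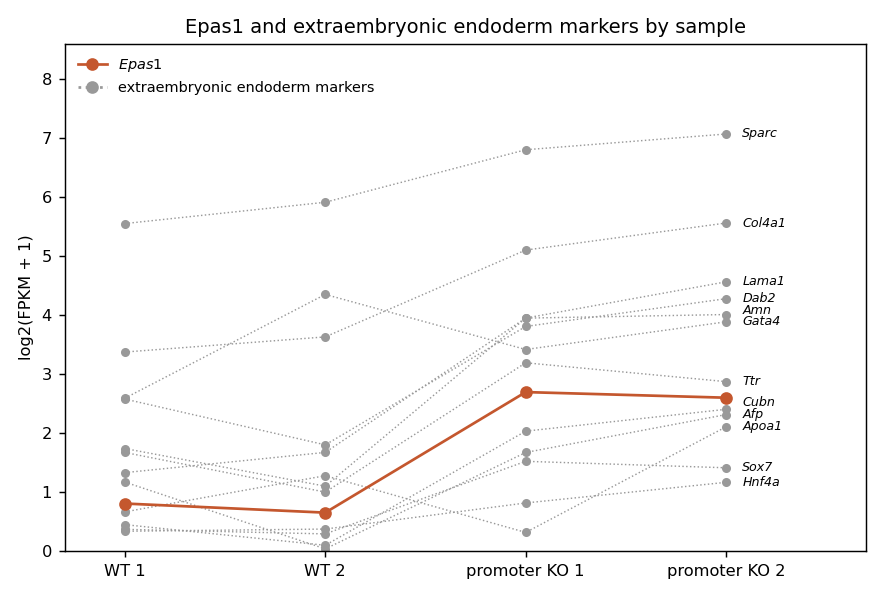
Levels of *Epas1* (orange) and of the 12 listed extraembryonic endoderm markers (grey) in each sample, as log2(FPKM + 1), with lines joining the values of 1 gene. *Epas1* and 8 of the markers are higher in promoter KO at an adjusted p under 0.05 (*Epas1*, *Sox7* and *Cubn* passed the filter only there), and *Gata4* and *Apoa1* overlap between genotypes.

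Over the 4 samples, the genes nearest to *Epas1* in gene-centred log2(FPKM + 1), by Euclidean distance among 11940 tested genes, were *Serpinb6c* (0.164), *Gm13247* (0.226) and *Spink1* (0.247). Like *Epas1*, *Serpinb6c* passed the filter only through promoter KO, with 0.182 and 0.163 FPKM in WT against 3.12 and 2.98 there. *Spink1*, a protease inhibitor gene, had 6.92 and 7.55 FPKM in WT against 27.4 and 29.5 in promoter KO. Pearson's r with *Epas1* was 0.999, 0.993 and 0.992 in the same order, over only 4 samples that fall into 2 groups. These genes were picked for their nearness, so a high r follows from the choice. The nearest genes to *Hif1a* were *Zmynd19* (0.0203), *Rbm12b2* (0.0225) and *Rprd1b* (0.0246), with r of 0.998, 0.999 and 0.998. Picked for that nearness, each of these was, like *Hif1a*, lowest in WT replicate 2, and none passed the test.

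*Arnt* encodes the beta subunit shared by the HIF alpha proteins and lies at chr3:95434388-95497240 (forward strand). It had 19.7 and 16.3 FPKM in WT against 16.6 and 17.7 in promoter KO. Both promoter KO values lay between the WT values. On the log2 scale the difference was −0.06 (SE 0.126, 95% confidence interval −0.37 to 0.25, adjusted p = 0.765), and it was 0.07 without WT replicate 1.

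*Arnt2*, a beta subunit best known from neural tissue, lies at chr7:84246278-84410176 (reverse strand) and overlaps an annotated antisense gene. It had 4.87 and 4.26 FPKM in WT against 3.23 and 4.07 in promoter KO. WT was higher than both promoter KO samples, replicate 2 by less than the spread within WT. Its log2 fold change was −0.26 (SE 0.158, 95% confidence interval −0.65 to 0.12, adjusted p = 0.302). *Arnt* was the more abundant beta subunit in every sample, at 4.05 and 3.82 times *Arnt2* in WT and 5.14 and 4.35 times in promoter KO. Summed alpha over summed beta FPKM was 1.44 and 1.43 in WT and 2.02 and 1.85 in promoter KO, so alpha transcripts outnumbered beta transcripts per length in all samples, by more in promoter KO.

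*Vhl* encodes the subunit that recognises hydroxylated HIF alpha and lies at chr6:113623959-113631633 (forward strand). It had 10.6 and 9.97 FPKM in WT against 9.90 and 9.32 in promoter KO. The groups were separated by less than the spread within either. This gave a log2 fold change of −0.09 (SE 0.117, 95% confidence interval −0.38 to 0.19, adjusted p = 0.625). *Hif1a* had 2.80 and 2.45 times the FPKM of *Vhl* in WT and 3.27 and 3.48 times in promoter KO.

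*Egln2* encodes the prolyl hydroxylase PHD1 and lies at chr7:27158658-27166802 (reverse strand), overlapping *Cyp2t4* on the other strand, which had at most 0.0356 FPKM. *Egln2* was the most abundant member, with 42.1 and 41.8 FPKM in WT against 47.0 and 49.1 in promoter KO. Both promoter KO samples were higher, by more than the spread within either genotype. Its log2 fold change was 0.19 (SE 0.0835, 95% confidence interval −0.02 to 0.39, adjusted p = 0.187), with the narrowest interval of the 8 members.

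*Hif1an* encodes FIH, the asparaginyl hydroxylase, and lies at chr19:44562850-44576274 (forward strand). It had 12.6 and 11.8 FPKM in WT against 12.8 and 13.0 in promoter KO. The promoter KO samples were higher, though both exceeded the nearer WT sample by less than the WT samples differed. The difference on the log2 scale was 0.08 (SE 0.110, 95% confidence interval −0.19 to 0.35, adjusted p = 0.655).

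The other HIF prolyl hydroxylases, *Egln1* and *Egln3*, are themselves known HIF target genes, and both fell. *Egln1*, which encodes the main oxygen sensor PHD2, had 50.6 and 55.5 FPKM in WT against 10.6 and 20.1 in promoter KO. *Egln3*, which encodes PHD3, had 56.2 and 56.1 FPKM in WT against 14.8 and 25.8 in promoter KO. For each gene both promoter KO samples were under the WT samples by far more than the spread within WT, and promoter KO replicate 1 was the lowest. The log2 fold change was −1.78 for *Egln1* (SE 0.267, adjusted p = 0.0389) and −1.47 for *Egln3* (SE 0.236, adjusted p = 0.0422). With the same genes tested, the adjusted p of *Egln1* and *Egln3* was 0.0729 and 0.0763 without promoter KO replicate 1, 0.204 and 0.211 without WT replicate 2, and 0.0837 and 0.0971 without WT replicate 1. It was 0.144 and 0.146 with no filter on low values and 0.0639 and 0.0647 without limma's trend.

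Together with *Egln2* these made up a hydroxylase sum of 149 and 153 FPKM in WT against 72.4 and 95.1 in promoter KO. *Egln2* was the least abundant of them in both WT samples, at 28.3% and 27.3% of the sum, and the most abundant in both promoter KO samples, at 64.8% and 51.7%. Summed alpha over summed hydroxylase FPKM was 0.238 and 0.192 in WT and 0.554 and 0.424 in promoter KO. These ratios are of transcripts per length and say nothing of protein amounts or of enzyme activity.

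HIF proteins bind the core letters ACGTG or GCGTG, and the promoter windows of 4 genes are shown. They set *Hif1a* and *Hif3a*, alpha subunits that lay on opposite sides of WT but were not called, beside the hydroxylases that fell. *Epas1*, the alpha subunit that was called, had no window. The choice of windows was made after the values had been seen. Each is the 250 bases before the RefSeq start (GRCm38.p6), 5′ to 3′ on the gene's own strand, with capitals at each match of ACGTG or GCGTG on either strand. On the other strand these letters read CACGT and CACGC, and CACGTG counts on both. The windows are chr12:73907617-73907866 (forward strand) for *Hif1a*, inside the longer GENCODE gene, chr7:17062428-17062677 (reverse) for *Hif3a*, chr8:124949255-124949504 (reverse) for *Egln1* and chr12:54203875-54204124 (reverse) for *Egln3*. The *Egln1* window also runs into its GENCODE gene, which reaches 124949324, and its ACGTG match lies in that overlap.
Hif1a: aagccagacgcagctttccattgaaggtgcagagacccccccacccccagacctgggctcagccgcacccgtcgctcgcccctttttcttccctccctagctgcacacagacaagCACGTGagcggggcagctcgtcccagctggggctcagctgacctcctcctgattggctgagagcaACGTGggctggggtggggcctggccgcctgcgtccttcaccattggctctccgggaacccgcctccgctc
Hif3a: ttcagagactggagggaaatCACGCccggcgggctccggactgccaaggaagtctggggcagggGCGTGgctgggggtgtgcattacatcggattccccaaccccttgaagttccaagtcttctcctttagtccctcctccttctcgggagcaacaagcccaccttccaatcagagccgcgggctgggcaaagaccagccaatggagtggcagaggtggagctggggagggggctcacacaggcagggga
Egln1: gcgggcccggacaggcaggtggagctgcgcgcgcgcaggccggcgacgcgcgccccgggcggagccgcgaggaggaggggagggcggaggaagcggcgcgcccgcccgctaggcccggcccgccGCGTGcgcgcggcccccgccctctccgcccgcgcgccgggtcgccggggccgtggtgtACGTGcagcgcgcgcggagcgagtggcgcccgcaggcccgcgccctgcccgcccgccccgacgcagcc
Egln3: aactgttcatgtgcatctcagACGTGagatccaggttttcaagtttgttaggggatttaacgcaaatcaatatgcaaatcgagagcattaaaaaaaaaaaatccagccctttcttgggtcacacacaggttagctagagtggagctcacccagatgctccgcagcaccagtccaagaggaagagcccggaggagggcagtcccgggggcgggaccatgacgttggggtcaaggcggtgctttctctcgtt

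*Hif1a* has 3 such matches, of which the pair that begins 135 and 134 bases before the start reads as 1 palindrome. *Hif3a* has 2 matches, *Egln1* has 2 and *Egln3* has 1. For the 8 members, 7 had an entry and *Epas1* had none. They gave 8 windows, since *Egln2* has 2 starts, and 5 of the 8 held a match (62.5%). Of all 32851 RefSeq windows of this length 38.6% held a match, and of the 63 windows of the HIF target genes described next 79.4% did. *Arnt2*, *Vhl* and *Hif1an* had no match in their windows. A match is a description of the letters and was not tested for binding.

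The wider set of HIF partners held 27 genes in 5 lists, of which 23 were tested. *Egln1* and *Egln3* were the 2 that fell and 0 rose by limma, against 5 lower and 2 higher at an unadjusted p under 0.05. The median log2 fold change was 0.03. In the VHL ligase list, the most abundant gene was *Elob*, which encodes elongin B, at 740 and 701 FPKM in WT against 747 and 745 in promoter KO, with a log2 fold change of 0.05 (adjusted p = 0.656) that was −0.02 with quantile normalization. All 4 genes of that list were tested and none was called by limma, nor was any at an unadjusted p under 0.05. *Elob* has 4 near-identical copies in the annotation that could share its reads.

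*Cited2*, which encodes a protein that competes with HIF alpha for its coactivators and is also a HIF target, led the coactivator list. It had 95.5 and 114 FPKM in WT against 74.7 and 69.1 in promoter KO. Its promoter KO samples were both lower, and the log2 fold change of −0.53 (SE 0.108) had an adjusted p of 0.0555. *Hsp90ab1*, the most abundant of the genes that act on HIF stability apart from VHL, is a chaperone gene with 3547 and 3596 FPKM in WT against 3437 and 5139 in promoter KO. Promoter KO replicate 2 stood apart, and the log2 fold change of 0.23 (adjusted p = 0.412) was −0.06 without it.

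Of the other partners of ARNT, *Ahr*, the aryl hydrocarbon receptor gene, was the most abundant except in WT replicate 2, where *Npas1* was, with 2.37 and 2.18 FPKM in WT against 3.00 and 3.23 in promoter KO. Its promoter KO samples were both higher, with a log2 fold change of 0.33 that did not pass the test (adjusted p = 0.178). *Npas1*, the other gene tested, went the opposite way, with 2.04 and 3.66 FPKM in WT against 0.954 and 1.64 in promoter KO and a log2 fold change of −0.73 (adjusted p = 0.131). *Ahrr*, *Sim1*, *Sim2* and *Npas3* were below the filter in all samples.

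**Figure D4:**
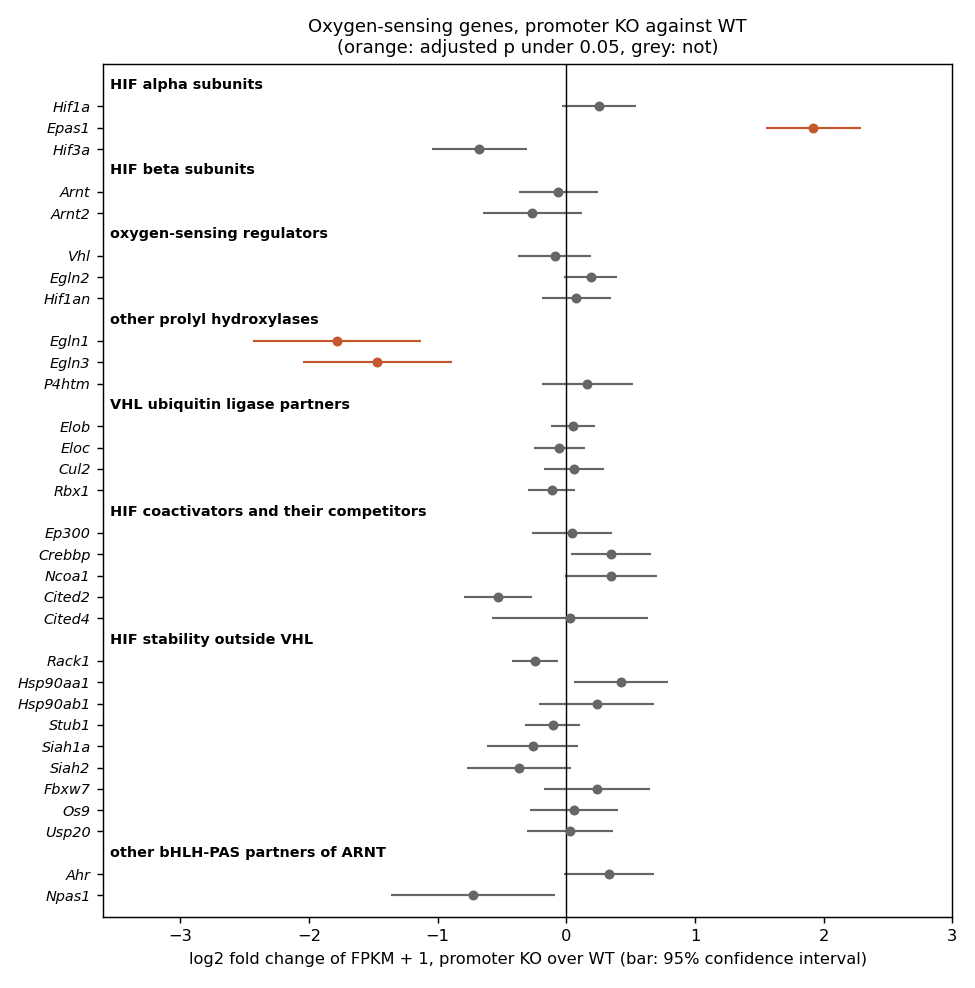
Log2 fold changes of FPKM + 1, promoter KO over WT, for the 8 members and the 23 tested partner genes, grouped by role, with bars for the 95% confidence interval (n = 2 per genotype). *Epas1* lies to the right of 0 and *Egln1* and *Egln3* to the left at an adjusted p under 0.05 (orange), and no other gene passed the test (grey). *Epas1* reached the filter only through promoter KO.

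HIF target genes were lower in promoter KO. Of 53 listed, 49 were tested, 16 fell and 0 rose at an adjusted p under 0.05 by limma, which is 32.7% lower against 1.89% of all tested genes. At an unadjusted p under 0.05 the counts were 34 lower and 0 higher. For 39 of the 49, each promoter KO sample was under each WT sample (79.6%, against 32.4% of all tested genes), while 2 were above and 8 overlapped. The median log2 fold change was −0.59, against 0.004 over all tested genes. Without *Egln1*, *Egln3* and *Cited2*, which are also among the partners, 14 of 46 fell. The list was chosen with earlier results of these data known, so its counts are a description of these genes and not independent evidence of their direction.

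In glucose metabolism, 8 of 21 tested targets fell and the median was −0.59. The study, which tested with Cuffdiff, reported no differences between these genotypes in the genes for glucose metabolism enzymes or transporters. Its plot of all genes in these genotypes also required a minimum fold change, which limma's calls here did not, so the 2 results are not on 1 threshold. The transporter genes *Slc2a1* and *Slc2a3* were lower in both promoter KO samples but not called by limma (log2 fold change −0.71 and −0.58, adjusted p = 0.0711 and 0.112). *Ldha*, which encodes lactate dehydrogenase and was the most abundant in WT (*Eno1* was in promoter KO), had 3200 and 3118 FPKM in WT against 1931 and 2006 in promoter KO, and its log2 fold change was −0.68 (adjusted p = 0.0244). *Aldoc*, an aldolase gene, had 25.5 and 37.1 FPKM in WT against 3.66 and 8.46 in promoter KO, and showed the largest change of the list at −2.26 (adjusted p = 0.0404). In both genes the genotypes were well apart. The other named genes were *Gys1* (glycogen synthase, −1.56, adjusted p = 0.0493), *Pgk1* (phosphoglycerate kinase, −0.88, adjusted p = 0.0340), *Gbe1* (glycogen branching enzyme, −0.80, adjusted p = 0.0482) and *Pfkl* (phosphofructokinase, −0.71, adjusted p = 0.0391). Neither *Gys1* nor *Gbe1* was called with median centring, with quantile normalization or with a filter at a mean of 5 FPKM. *Ldha* and *Pgk1* have 5 and 4 near-identical copies in the annotation, and *Gys1* overlaps *Ruvbl2* on the other strand.

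Outside glucose metabolism, 28 of 32 targets were tested, 8 fell, and the median was −0.62. *Ankrd37* had 15.3 and 14.7 FPKM in WT against 3.56 and 4.40 in promoter KO, and its log2 fold change was −1.69 (adjusted p = 0.0208). It overlaps *Lrp2bp* and *Ufsp2* on the other strand. *Ndrg1*, a gene induced by stress, had 43.4 and 47.8 FPKM in WT against 7.12 and 14.0 in promoter KO, the largest change of the list at −2.08 (adjusted p = 0.0371). Besides *Egln1* and *Egln3*, the genes named by rule were *Adm*, which encodes the peptide adrenomedullin (−1.68, adjusted p = 0.0423), and *Ddit4*, which encodes an inhibitor of mTOR signalling (−1.41, adjusted p = 0.0422). *Car12* passed the filter only through WT.

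In all 16 targets that fell, promoter KO replicate 1 was lower than replicate 2, as it was for all 8 mesendoderm markers. The same held for 186 of the 226 genes that fell in all and for 6389 of all 11941 tested genes. The part of the mesendoderm genes' lower level in the targets' lower level was not tested. The number of targets that fell was 0 without promoter KO replicate 1 or without WT replicate 2, where 28 and 27 were lower at an unadjusted p under 0.05, and also 0 with no filter on low values, where 30 were. It was 1 without WT replicate 1 and 1 without limma's trend.

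**Figure D5:**
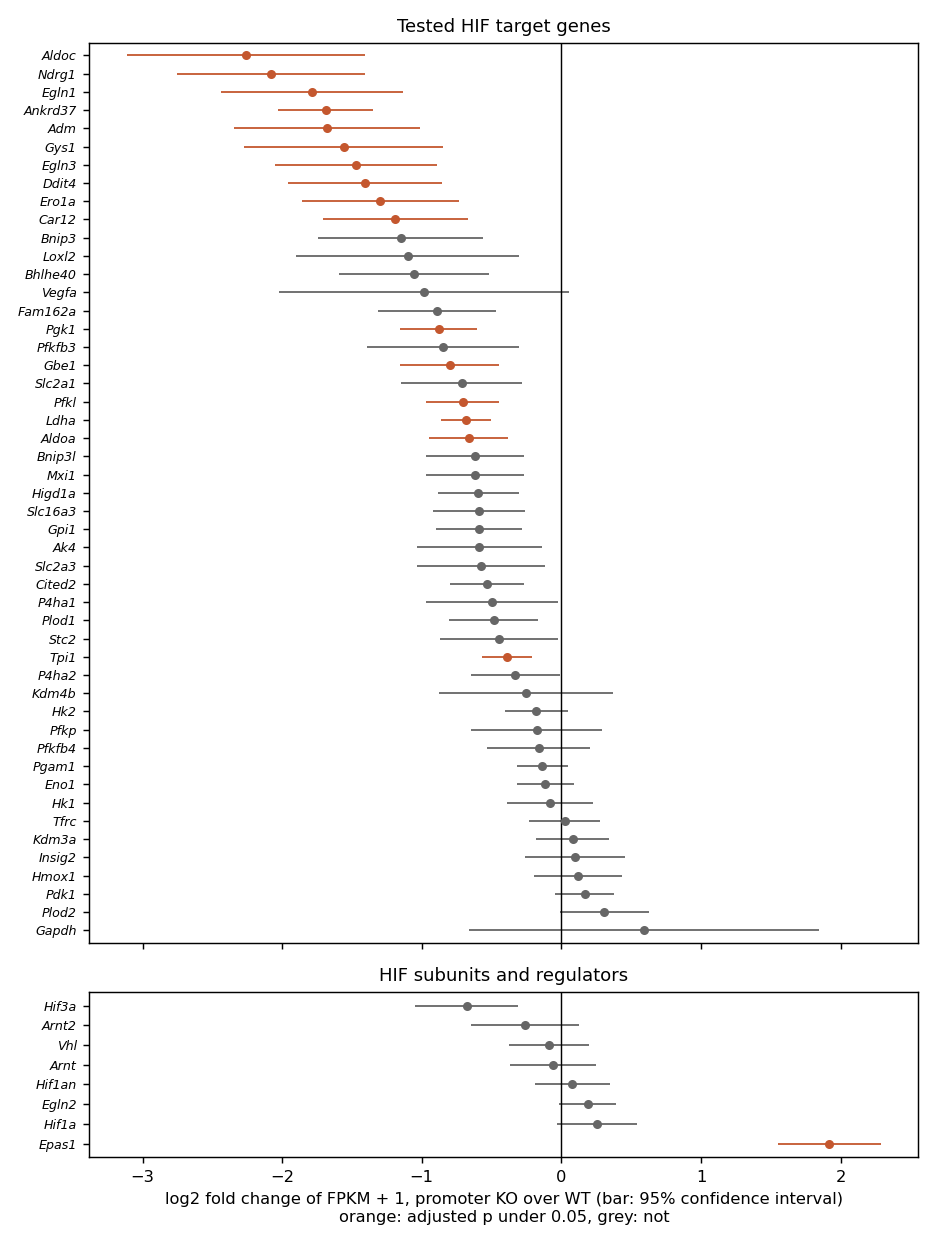
Log2 fold changes of FPKM + 1, promoter KO over WT, with bars for the 95% confidence interval, for the 49 tested HIF target genes (top) and the 8 members (bottom) on 1 scale. Of the targets 42 lie left of 0 and 16 of them pass the test (orange), while 4 of the 8 members lie left of 0. *Epas1*, to the right, is the member that passes, and it reached the filter only through promoter KO.

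Set side by side, the targets' median of −0.59 compares with log2 fold changes of 0.25 for *Hif1a*, 1.92 for *Epas1*, −0.68 for *Hif3a*, −0.06 for *Arnt* and −0.26 for *Arnt2* among the subunits, and of 0.19 for *Egln2*, 0.08 for *Hif1an* and −0.09 for *Vhl* among the regulators. Beside the lower HIF target expression there was no called decrease in a transcript of an alpha or a beta subunit. There was also no called increase in *Vhl*, *Egln2* or *Hif1an*. The other hydroxylase genes *Egln1* and *Egln3*, counted here among the targets, were called lower (−1.78 and −1.47). Whether any of these differences bears on the targets was not tested. *Hif3a* had the lowest estimate of the members, below the targets' median, and missed the threshold. A p that misses the threshold does not show equal levels, and the interval of *Arnt2* also reaches below that median. Whether the subunits' proteins differed was not tested.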

How the data were processed

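The authors deposited 1 file of FPKM per sample, without naming the unit. The study's methods name TopHat, Cufflinks and Cuffdiff and call the values RPKM, while the submitters' processing notes name HISAT2 2.1.0, Cufflinks, Cuffnorm and mm10. Library size and transcript length had thus been normalized by the authors. The strand setting was not given in the sources used here, so a gene and its antisense partner cannot be told apart. Reads were not used here.

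A gene was tested when 2 or more of the 4 samples had 1 FPKM or more (11941 genes). The test was made on log2(FPKM + 1) with limma 3.58.1 in R 4.3.3 (eBayes with an intensity trend, 3.99 prior degrees of freedom) for genotype, and p-values were adjusted by Benjamini-Hochberg over all of them. The procedure was tested on simulated data. Named genes were the 8 members, every partner gene with an adjusted p under 0.05 or most abundant in its list, at most 6 called targets per direction and list, and the 3 genes nearest to *Hif1a* and to *Epas1*. Markers and other genes outside this rule were chosen after their values were seen. The members and lists were chosen with earlier results of these data known. *Elob* is listed under an older symbol. Depth was estimated from 4101 genes with a single transcript at an assumed fragment length of 200 bases. Near-identical copies were other genes sharing 200 bases or more at 95% identity or more (BLAST 2.17.0, GENCODE M21). Python 3.11.15, numpy 2.4.6, pandas 2.3.3 and matplotlib 3.10.9 were used. Alternatives were another pseudocount, other filters, no trend, other scalings, a replicate block and each sample left out.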

Additional observations from a re-analysis of the deposited data

How the results depend on the processing

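The numbers of genes called depended on the processing. With the replicate number as a block, 667 genes were lower and 535 higher, and 29 targets were lower, against 226, 201 and 16 without it. Same-numbered samples share only a number (the correlation of their deviations was 0.0348), so the block is no design feature. With no filter, 0 genes were lower, 0 higher, 0 members higher and 0 targets lower by limma (1982, 2077, 2 and 30 at an unadjusted p under 0.05). A filter at a mean of 5 FPKM gave 108 genes lower, 95 higher and 9 targets lower, and 0 members higher because *Epas1* was then not tested. Without the trend, 27 genes were lower, 55 higher and 1 target lower. Median centring gave 126 genes lower, 157 higher and 10 targets lower. The cause was not tested where none is given.

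Leaving out each sample in turn, with the lone sample assumed to vary like the other pair, gave 0 to 342 genes lower, 0 to 296 higher, 0 to 1 members higher and 0 to 20 targets lower. The filter was then applied again to 3 samples, by which *Epas1* was no longer tested without either promoter KO sample. An alternative chosen after seeing the data therefore kept the genes tested in 4 samples, and gave 0 to 248 genes lower, 0 to 238 higher, 0 to 1 members higher and 0 to 18 targets lower (114 genes lower and 61 higher without WT replicate 1). On those genes *Epas1* had an adjusted p of 0.0346 without promoter KO replicate 2 and 0.0306 without WT replicate 1.

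Mesendoderm markers called lower ranged from 0 to 7 and extraembryonic endoderm markers called higher from 0 to 8 over all 16 alternatives, endothelial and blood markers called lower from 0 to 2, pluripotency markers called higher from 0 to 2, and neuroectoderm markers called lower or higher from 0 to 1 each.

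Over the 13 that tested it, *Epas1* kept its direction (1.84 to 2.83) and was called in 9, with an adjusted p from 0.00817 to 0.133. *Hif3a* was lower and not called in all 15 (adjusted p 0.0588 to 0.251), and no alternative called *Hif1a*, *Arnt*, *Arnt2*, *Vhl*, *Egln2* or *Hif1an*. The estimate changed sign for *Arnt* without WT replicate 1 (0.068, and −0.191 without WT replicate 2), *Elob* with quantile normalization (−0.0169) and *Hsp90ab1* without promoter KO replicate 2 (−0.0553, and 0.525 without promoter KO replicate 1), none of them called. Of 484 values of the 31 named genes under the alternatives, 356 kept direction and call, 121 lost the call and 2 gained it, both for *Cited2*.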

Other observations

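*Gapdh*, a listed target that is often used as a reference gene and was singled out here after its values were seen, had 53.8 and 161 FPKM in WT against 187 and 106 in promoter KO. Its WT samples differed by more than its genotypes did, and its level was far under that of *Ldha* or *Aldoa* in every sample. *Pdk1*, another listed target singled out after its values were seen, had 57.3 and 57.5 FPKM in WT against 61.8 and 67.5 in promoter KO, with both promoter KO samples higher (log2 fold change 0.17, adjusted p = 0.240).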
